A study of Mus musculus with 24 samples.

Results

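The T cell receptor beta chain (TRB) repertoire of mouse spleen was described from the TCR sequencing libraries of the series, which are 8 of its 24 libraries. Entries were kept where both the V and the J segment were TRB segments and the CDR3 translated to letters only, and entries alike in V, J and CDR3 bases made up 1 clonotype. The libraries were made from splenocyte RNA of BALB/c mice, 4 of them titled CT-26 tumur and 4 titled control. CT-26 cells are a colon carcinoma line that was derived from BALB/c mice, and the treatment protocol, alike for all samples, is an injection of these cells into the right side at 8 weeks of age. The 4 TCR libraries of each set were made with a kit that profiles alpha and beta chains together. Titles and treatment labels are at odds: the libraries titled CT-26 carry a healthy control treatment label, and those titled control carry one of injected CT-26 cells. The 2 sets are therefore called by their titles, titled CT-26 and titled control, and no difference between them is read here as tumour against healthy. The labels do not say that the 4 libraries of a set came from separate animals, so each p-value measures the spread between these libraries only.

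A beta chain is assembled in the thymus by joining a D segment to a J segment and then a V segment to the DJ unit, with bases trimmed and added at both joints. The joined stretch encodes the CDR3, the loop that meets the peptide held by an MHC molecule, and its nucleotide sequence marks a T cell clone. The mouse locus holds a pair of D–J–C clusters in tandem, so the D segment of the first cluster can join J segments of either cluster, whereas the D segment of the second lies downstream of the first J cluster. In BALB/c mice, superantigens of endogenous mammary tumour proviruses, shown by the class II molecule I-E, delete thymocytes that carry certain V segments.

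The libraries differed in depth, and the sets did not overlap in it. Kept TRB reads numbered 30610, 15356, 19236 and 14939 in titled CT-26 libraries 1 to 4, against 112332, 95572, 153300 and 108338 in titled control libraries 1 to 4. They made up 37.1% to 44.8% of all TCR reads in the titled CT-26 set and 59.9% to 64.7% in the titled control set. These reads fell into 6891, 3347, 3193 and 4152 clonotypes in the titled CT-26 libraries and 33814, 28155, 48878 and 32982 in the titled control libraries. Because the depths differ, counts of clonotypes were compared at 14939 reads, the total of the shallowest library, as the exact expected value over random draws of that size. Reads are not counts of molecules, and intervals given below cover counting error only.

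One pair of libraries across the sets held many of the same clonotypes. Titled CT-26 4 and titled control 3 shared 1862 nucleotide clonotypes, which is 44.8% of the clonotypes of titled CT-26 4 (95% Wilson interval 43.3% to 46.4%) and 3.81% of those of titled control 3. The shared clonotypes held 74.6% of the TRB reads of titled CT-26 4 and 8.27% of those of titled control 3. The other 15 pairs of a titled CT-26 with a titled control library shared between 0.752% and 2.53% of the titled CT-26 library's clonotypes. Sharing went with clone size. Of the 398 clonotypes of titled CT-26 4 with 10 or more reads, 349 were in titled control 3 (87.7%, 95% Wilson interval 84.1% to 90.6%), against 36.1% of its single-read clonotypes. In titled CT-26 1, 2 and 3, the library that held most of their clonotypes of 10 or more reads had 2.41%, 3.08% and 3.54% of them. Alpha chain clonotypes were shared as well, with 22.0% of those in titled CT-26 4 found in titled control 3 (95% Wilson interval 20.96% to 23.03%), against 2.05% to 3.58% in the other 15 pairs. What links these libraries was not tested, and results are also given without both of them. That leaves 3 libraries against 3, where an exact two-sided permutation test cannot give a p below 0.1.

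**Figure D1:**
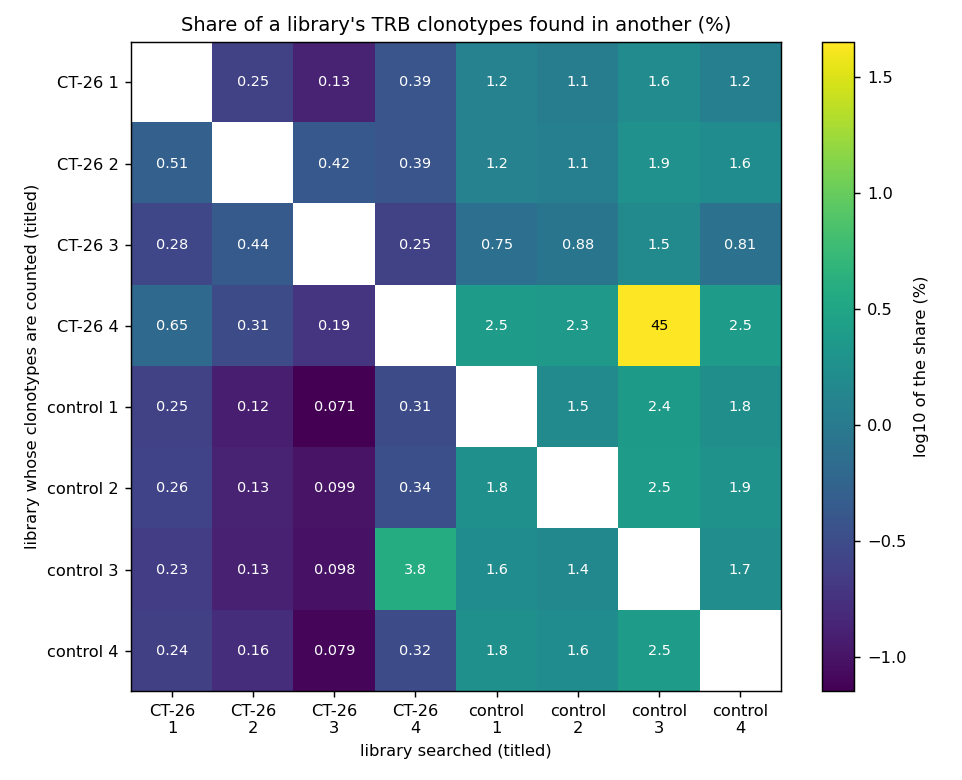
Share of the TRB nucleotide clonotypes of one library (row) that were found in another (column), in percent, with the colour on a log10 scale. The cell of titled CT-26 4 in titled control 3 stands at 45, and every other cell lies at 3.8 or lower.

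At equal reads the titled CT-26 libraries held fewer clonotypes, and clonotypes of 10 or more reads took a larger share of their reads. At 14939 reads, 4339, 3285, 2703 and 4152 clonotypes were expected in titled CT-26 libraries 1 to 4, against 10056, 9359, 11343 and 10108 in titled control libraries 1 to 4. Means were 3620 ± 764 in titled CT-26 and 10217 ± 825 in titled control (SD, n = 4 each), and the difference of -6597 had an exact two-sided permutation p of 0.0286, the smallest that 70 assignments allow, and an adjusted p of 0.0413 over the 13 single values tested. Without both libraries of the sharing pair the difference was -6399. At equal reads, clonotypes of 10 or more reads took 44.2%, 65.8%, 73.7% and 62.2% of reads in titled CT-26 libraries 1 to 4, against 0.693%, 0.895%, 0.269% and 0.249% in titled control libraries 1 to 4. The sets did not overlap (61.5% ± 12.5 in titled CT-26 and 0.527% ± 0.320 in titled control, SD, exact permutation adjusted p = 0.0413). Clonotypes of 20 or more reads held 36.8% ± 16.8 of titled CT-26 reads and 0.0951% ± 0.105 of titled control reads. These shares depend on drawing the deeper titled control libraries down to 14939 reads before a fixed number of reads is applied. At each library's own depth, the median read lay in a clonotype of 16, 17, 23 and 17 reads in titled CT-26 libraries 1 to 4, against 7, 8, 6 and 7 reads in titled control libraries 1 to 4.

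At equal reads, the mean share of clonotypes declined with clone size in both sets, and the mean share of reads did so in the titled control set. Single libraries departed from this. Titled CT-26 3 held 8.00%, 8.53% and 10.9% of clonotypes at 2 to 4, 5 to 9 and 10 to 19 reads. Titled CT-26 4 held 4.62% at 10 to 19 reads and 4.96% at 20 or more. At equal reads, single-read clonotypes were 66.7% ± 6.18 of clonotypes in the titled CT-26 set and 71.2% ± 4.54 in the titled control set, and the sets overlapped (difference -4.47 points, exact permutation adjusted p = 0.286). At each library's own depth the order was the opposite one, with 68.9%, 68.2%, 67.6% and 74.8% single-read clonotypes in titled CT-26 libraries 1 to 4, against 60.2%, 60.6%, 57.98% and 58.1% in titled control libraries 1 to 4, and the sets did not overlap. Clonotypes of 2 to 4 reads were 11.4% ± 3.95 of clonotypes in titled CT-26 and 27.1% ± 3.70 in titled control, those of 5 to 9 reads 8.73% ± 3.15 in titled CT-26 and 1.59% ± 0.850 in titled control, and those of 10 to 19 reads 7.79% ± 2.62 in titled CT-26 and 0.0535% ± 0.0316 in titled control. In the titled CT-26 set, clonotypes of 2 to 4 reads held 7.72% ± 4.52 of reads, against 16.2% ± 3.901 in single-read clonotypes and 24.7% ± 6.43 in those of 10 to 19 reads, and these classes are of unequal width. In the titled control set, shares of reads declined with clone size, with 48.9% ± 7.17 in single-read clonotypes, 44.6% ± 4.21 in those of 2 to 4 reads and 0.432% ± 0.231 in those of 10 to 19 reads. The inverse Simpson index is the number of clones of equal size that would give the same chance of 2 reads coming from 1 clone, and it rises with the number of clones and with their evenness. From all reads of each library it was 1703, 778, 780 and 794 in titled CT-26 libraries 1 to 4, against 13141, 10696, 21104 and 14159 in titled control libraries 1 to 4 (exact permutation adjusted p = 0.0413). Titled CT-26 1 stood above its set here, while titled control 3, the deepest library, had the highest index.

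**Figure D2:**
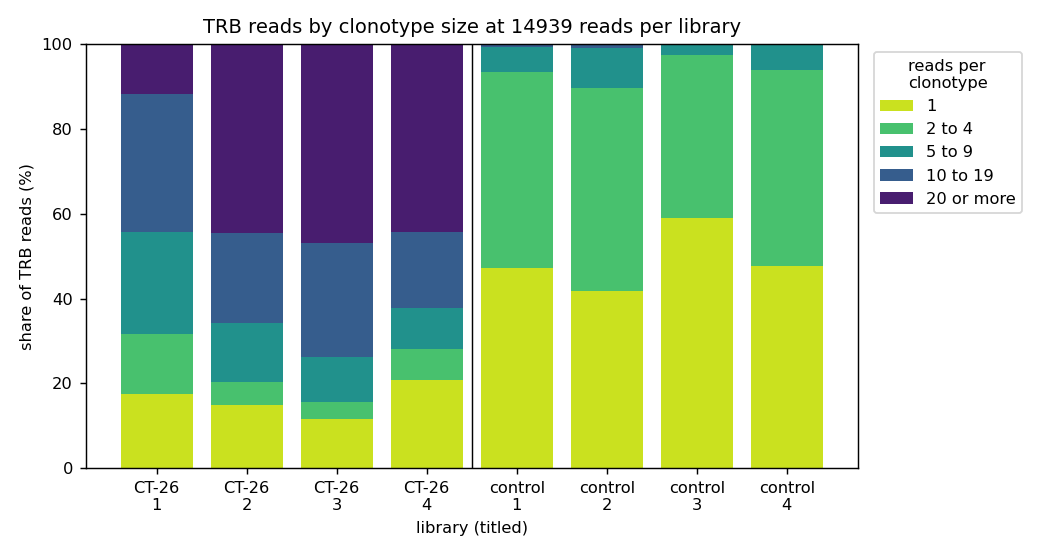
Share of TRB reads (y axis, percent) by the number of reads in their clonotype (colour), expected at 14939 reads in each library. Clonotypes of 10 or more reads fill 44.2% to 73.7% of the 4 titled CT-26 bars and under 1% of the 4 titled control bars.

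No single clone dominated any library. The largest clonotype took 0.294%, 0.495%, 0.447% and 0.756% of TRB reads in titled CT-26 libraries 1 to 4, against 0.171%, 0.155%, 0.0965% and 0.0655% in titled control libraries 1 to 4. The smallest number of clonotypes that together held 50% of reads was 556, 251, 259 and 254 in the titled CT-26 libraries and 4530, 3595, 7096 and 4566 in the titled control libraries. The CDR3 sequences of the largest clonotypes are shown to give the range of their joints. Capitals mark the bases between the unbroken matches to the germline V and J ends. They hold the D segment, added bases and any germline bases beyond a first mismatch. These ends were taken from C57BL/6 transcripts.
Titled CT-26 1, TRBV13-2 with TRBJ1-3: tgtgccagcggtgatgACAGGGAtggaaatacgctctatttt
Titled CT-26 2, TRBV13-1 with TRBJ2-3: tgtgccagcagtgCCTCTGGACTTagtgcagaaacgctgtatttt
Titled CT-26 3, TRBV13-2 with TRBJ1-3: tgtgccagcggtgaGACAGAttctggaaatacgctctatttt
Titled CT-26 4, TRBV13-2 with TRBJ1-4: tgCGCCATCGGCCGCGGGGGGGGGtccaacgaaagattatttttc
Titled control 1, TRBV13-2 with TRBJ2-1: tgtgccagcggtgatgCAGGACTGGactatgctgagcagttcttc
Titled control 2, TRBV13-2 with TRBJ1-2: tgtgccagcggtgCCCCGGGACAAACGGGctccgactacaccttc
Titled control 3, TRBV29 with TRBJ1-2: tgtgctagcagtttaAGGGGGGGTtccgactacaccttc
Titled control 4, TRBV13-3 with TRBJ1-3: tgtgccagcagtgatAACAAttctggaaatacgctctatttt
The number of bases between the germline ends was 7, 11, 6 and 22 in the titled CT-26 clonotypes and 9, 16, 9 and 5 in the titled control clonotypes. The largest clonotype of titled CT-26 4 has the highest count and was in no other library. It mismatches its called V segment at the third base, so its 22 bases include the V part from there on. The largest clonotype of titled control 4, the shortest joint, was in 7 of the 8 libraries.

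No J segment passed the test, and the share of the second J cluster overlapped between the sets. Cluster 2 segments made up 67.3%, 64.1%, 55.5% and 61.7% of clonotypes in titled CT-26 libraries 1 to 4, against 66.5%, 65.4%, 65.7% and 66.1% in titled control libraries 1 to 4. The sets overlapped, with titled CT-26 1 above every titled control library and titled CT-26 3 lowest (62.2% ± 5.01 in titled CT-26 and 65.9% ± 0.477 in titled control, difference -3.75 points, exact permutation adjusted p = 0.203). By reads the shares were 63.6% ± 4.10 in titled CT-26 and 67.0% ± 0.764 in titled control (difference -3.38 points, exact permutation adjusted p = 0.217). The value depended on single libraries. Without titled CT-26 1 the differences were -5.48 points by clonotype and -4.96 points by read, both with an exact permutation adjusted p of 0.0338, and without titled CT-26 3 they were -1.53 and -1.73 points, both with an exact permutation adjusted p of 0.402. Of 12 J segments, 0 (0%) passed an adjusted p of 0.05 in edgeR's quasi-likelihood test, 2 had an unadjusted p under 0.05, and DESeq2 called 0.

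Among single J segments, those of largest use were TRBJ2-7, TRBJ2-5 and TRBJ2-1. TRBJ2-7 stood at 16.7%, 12.8%, 13.6% and 15.8% of clonotypes in titled CT-26 libraries 1 to 4, against 17.6%, 16.9%, 17.5% and 17.4% in titled control libraries 1 to 4 (log2 fold change -0.23 ± 0.08 SE, edgeR adjusted p = 0.109). Sets did not overlap for 4 of the 12 segments (33.3%): TRBJ2-7 and TRBJ1-6 had lower values in the titled CT-26 set, and TRBJ1-3 and TRBJ1-1 had higher ones. TRBJ1-6 averaged 3.15% ± 0.208 in titled CT-26 and 3.52% ± 0.0846 in titled control (log2 fold change -0.16 ± 0.04 SE, edgeR adjusted p = 0.109). TRBJ1-3 averaged 7.77% ± 1.86 in titled CT-26 and 6.15% ± 0.225 in titled control, with titled CT-26 3 at 10.49% (edgeR adjusted p = 0.206). TRBJ1-1 averaged 9.13% ± 0.280 in titled CT-26 and 8.46% ± 0.255 in titled control (edgeR adjusted p = 0.391). The other 8 segments overlapped between the sets and had edgeR adjusted p-values of 0.391 to 0.805. They were TRBJ1-2 at 5.93% ± 1.53 in titled CT-26 and 5.05% ± 0.245 in titled control, TRBJ1-4 at 9.32% ± 2.21 in titled CT-26 and 8.13% ± 0.491 in titled control, TRBJ1-5 at 2.54% ± 0.574 in titled CT-26 and 2.76% ± 0.0649 in titled control, and TRBJ2-1 at 11.6% ± 1.74 in titled CT-26 and 11.1% ± 0.135 in titled control. The rest were TRBJ2-2 at 5.24% ± 0.503 in titled CT-26 and 5.72% ± 0.149 in titled control, TRBJ2-3 at 9.25% ± 1.20 in titled CT-26 and 9.45% ± 0.335 in titled control, TRBJ2-4 at 8.86% ± 1.63 in titled CT-26 and 9.15% ± 0.414 in titled control, and TRBJ2-5 at 12.5% ± 0.745 in titled CT-26 and 13.2% ± 0.243 in titled control. The spread within the titled CT-26 set was the wider one for each of these 12 segments.

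**Figure D3:**
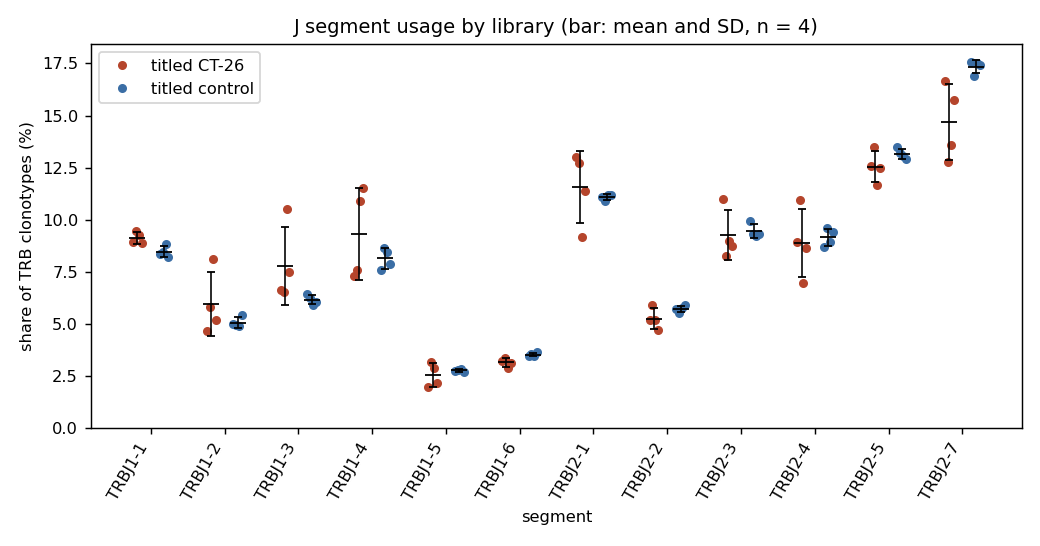
Share of TRB clonotypes (y axis, percent) that use each J segment (x axis), 1 point per library, with the mean and SD of each set of 4 in black. The titled CT-26 points, left of the titled control points for each segment, are more widely spread.

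The germline D segments differ at 1 base and in length, which is why their sequences are shown, in the sense strand of the GENCODE M21 transcripts of C57BL/6 on chromosome 6, with the differing base in capitals.
Trbd1: gggacAgggggc
Trbd2: gggacTgggggggc
The deposited D calls differed between the sets. Among cluster 2 clonotypes with a D call, TRBD2 took 51.8%, 50.9%, 54.7% and 50.8% in titled CT-26 libraries 1 to 4, against 58.1%, 58.8%, 59.4% and 57.8% in titled control libraries 1 to 4 (52.1% ± 1.82 in titled CT-26 and 58.5% ± 0.720 in titled control, difference -6.42 points, exact permutation adjusted p = 0.0413). The sets did not overlap, and without both libraries of the sharing pair the difference was -5.70 points. All 6 cluster 2 J segments had a lower mean in the titled CT-26 set, with differences between -4.19 points at TRBJ2-7 and -8.38 points at TRBJ2-5, and 3 of the 6 did not overlap between the sets. By clone size, here and in what follows counted in reads at each library's own depth, TRBD2 took 51.8% ± 2.18 in titled CT-26 and 58.7% ± 0.660 in titled control single-read clonotypes. In those of 2 to 9 reads it took 53.6% ± 1.82 in titled CT-26 and 57.3% ± 1.56 in titled control, and in those of 10 or more reads 51.4% ± 2.29 in titled CT-26 and 61.3% ± 0.677 in titled control. The titled control libraries were deeper, so a given class does not stand for the same clone frequency in both sets.

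A count that did not rest on the deposited D call showed a smaller difference. This count was added after seeing the data and took, in the bases between germline ends (read from C57BL/6 transcripts), the word ACTGGG for TRBD2 and ACAGGG for TRBD1, on the sense strand, leaving out clonotypes that held both. In cluster 2 clonotypes the TRBD2 word made up 60.2%, 60.4%, 65.1% and 54.3% of those with either word in titled CT-26 libraries 1 to 4, against 63.6%, 62.6%, 60.7% and 61.7% in titled control libraries 1 to 4. The sets overlapped (60.03% ± 4.40 in titled CT-26 and 62.1% ± 1.26 in titled control, difference -2.09 points, exact permutation p = 0.457, not adjusted). In clonotypes of 10 or more reads the difference was -1.04 points (exact permutation p = 0.771, not adjusted). In cluster 1 clonotypes the same words gave TRBD2 at 1.86% to 3.52% in the titled CT-26 and 1.56% to 2.60% in the titled control libraries, while the deposited calls gave it at 14.7% ± 1.75 in titled CT-26 and 17.5% ± 1.46 in titled control. The largest clonotype of titled CT-26 1, printed above, is an example: its deposited call is TRBD2, while its capitals open with the TRBD1 word. The word search covers only joints that keep the differing base and its neighbours. The TRBD2 difference was larger than the spread between libraries by the deposited calls and within it by the words.

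Clonotypes without any D call were 21.2%, 22.5%, 24.8% and 21.6% in titled CT-26 libraries 1 to 4, against 20.3%, 20.8%, 21.1% and 19.99% in titled control libraries 1 to 4 (difference 1.98 points, exact permutation adjusted p = 0.0413). In clonotypes of 2 or more reads the difference had the opposite sign, at -0.957 points (exact permutation adjusted p = 0.400). Weighted by the chance of a clonotype being seen at equal reads it was 1.58 points (exact permutation adjusted p = 0.165).

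CDR3 loops were slightly shorter in the titled CT-26 set. Mean length over clonotypes was 13.92, 13.91, 13.82 and 13.88 amino acids in titled CT-26 libraries 1 to 4, against 13.97, 13.98, 13.98 and 13.97 in titled control libraries 1 to 4. The sets did not overlap, and the difference was -0.0879 amino acids (13.89 ± 0.0447 in titled CT-26 and 13.97 ± 0.00668 in titled control, exact permutation adjusted p = 0.0413). Weighted by reads, means were 13.78 ± 0.0185 in titled CT-26 and 13.86 ± 0.0123 in titled control, a difference of -0.0876 amino acids with the same adjusted p. The length over clonotypes lost its call once each clonotype was weighted by its chance of being seen at equal reads (difference -0.0259 amino acids, exact permutation adjusted p = 0.314). Lengths differed with clone size in both sets. In clonotypes of 10 or more reads the means were 13.73 ± 0.0372 in titled CT-26 and 13.74 ± 0.0248 in titled control, in those of 2 to 9 reads 13.97 ± 0.0213 in titled CT-26 and 13.95 ± 0.0150 in titled control, and in single-read clonotypes 13.90 ± 0.0556 in titled CT-26 and 14.02 ± 0.0149 in titled control. Loops of 14 amino acids were the most common, at 30.1% ± 0.988 of titled CT-26 and 29.5% ± 0.409 of titled control clonotypes. Loops of 16 amino acids were 8.27% ± 0.979 in titled CT-26 and 9.54% ± 0.347 in titled control.

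Mean length differed more between V segments than between the sets. Segment means ran between 13.15 amino acids for TRBV20 and 14.58 for TRBV5 in the titled CT-26 set, and between 13.22 for TRBV20 and 14.63 for TRBV5 in the titled control set. Of 15 V segments with at least 20 clonotypes in every library, 0 (0%) differed at an adjusted p of 0.05 in limma and 1 had an unadjusted p under 0.05. Means were shorter in the titled CT-26 set for 11 segments and longer for 4. TRBV16, a segment of the superantigen list, had 13.678, 13.655, 13.714 and 14.2 amino acids in titled CT-26 libraries 1 to 4, against 14.140, 14.103, 14.210 and 14.156 in titled control libraries 1 to 4 (difference -0.34 ± 0.11 SE, limma adjusted p = 0.108). Titled CT-26 4 lay with the titled control libraries there. The next shorter segments by p were TRBV29 (difference -0.12 ± 0.06 SE) and TRBV3 (difference -0.23 ± 0.11 SE), both with a limma adjusted p of 0.362. Among longer ones were TRBV19 (13.93 ± 0.0879 in titled CT-26 and 13.85 ± 0.0125 in titled control, limma adjusted p = 0.697), TRBV13-1 (13.999 ± 0.117 in titled CT-26 and 13.95 ± 0.0416 in titled control, limma adjusted p = 0.697) and TRBV4 (13.86 ± 0.158 in titled CT-26 and 13.85 ± 0.0320 in titled control, limma adjusted p = 0.963). TRBV13-2, the most used segment over all 8 libraries, had 13.95 ± 0.116 in titled CT-26 and 14.01 ± 0.0498 in titled control (limma adjusted p = 0.697). The call depended on 1 library in this family too: without titled CT-26 4, TRBV16 and TRBV3 were called shorter, with differences of -0.47 and -0.34 amino acids (limma adjusted p = 2.51e-05 and 0.0213). The fit gives each library mean the same weight, however few clonotypes it rests on. In titled CT-26 3, TRBV16 had 19 single-read clonotypes, 9 of 2 to 9 reads and 0 of 10 or more. These p-values leave out the counting error of such means.

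The joint was counted as the bases between the unbroken match to the V germline end and that to the J germline end. Germline bases beyond a first mismatch therefore count as joint. So counted, it was longer on average in the titled CT-26 set. Whether this passed the test depended on which clonotypes were counted and how they were weighted. The joint held 15.4, 15.5, 16.4 and 14.5 bases in titled CT-26 libraries 1 to 4, against 14.4, 14.7, 14.2 and 14.4 in titled control libraries 1 to 4 (difference 0.976 bases, exact permutation adjusted p = 0.0743). The difference passed the test in clonotypes of 2 or more reads, at 0.473 bases (exact permutation adjusted p = 0.0413), and with clonotypes weighted by their chance of being seen at equal reads, at 3.14 bases (exact permutation adjusted p = 0.0464). This weight counts few-read clonotypes less, and most so in the deeper titled control libraries. Weighted means were 11.9, 12.1, 11.6 and 11.8 bases in titled control libraries 1 to 4, against 14.2, 15.5, 15.8 and 14.5 in titled CT-26 libraries 1 to 4. Without titled CT-26 4, which alone overlapped the titled control set, the difference was 1.30 bases (exact permutation adjusted p = 0.0371). The joint shortened with clone size in both sets. With ends from C57BL/6 transcripts, it averaged 17.7 ± 1.44 bases in titled CT-26 and 17.5 ± 0.223 bases in titled control in single-read clonotypes, 11.7 ± 0.339 in titled CT-26 and 10.6 ± 0.156 in titled control in those of 2 to 9 reads, and 9.76 ± 0.07997 in titled CT-26 and 9.63 ± 0.0497 in titled control in those of 10 or more reads. Single-read clonotypes also departed from their V segment more often. A mismatch to germline in the first 9 bases was found in 16.7% to 31.96% of titled CT-26 and 22.5% to 24.4% of titled control single-read clonotypes, against 4.23% to 6.10% in titled CT-26 and 2.91% to 4.06% in titled control libraries for clonotypes of 2 or more reads. The part of such mismatches in the difference between the sets was not tested.

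V segment usage differed between the sets. Of 23 V segments tested on clonotype numbers, 6 (26.1%) passed an adjusted p of 0.05 in edgeR's quasi-likelihood test, 2 of them higher and 4 lower in the titled CT-26 set. Sets did not overlap for 8 of the 23 (34.8%), 5 higher and 3 lower. TRBV31, which lies downstream of the constant genes in the opposite orientation and joins by inversion, rose to 8.30%, 6.75%, 7.77% and 8.43% in titled CT-26 libraries 1 to 4, against 5.98%, 5.72%, 4.53% and 5.27% in titled control libraries 1 to 4 (log2 fold change 0.54 ± 0.14 SE, edgeR adjusted p = 0.0208). The sets did not overlap. TRBV5 fell to 7.26%, 4.75%, 3.70% and 5.202% in titled CT-26 libraries 1 to 4, against 8.999%, 8.71%, 8.18% and 8.43% in titled control libraries 1 to 4 (log2 fold change -0.70 ± 0.18 SE, edgeR adjusted p = 0.0208). Again no library of one set reached the other. TRBV4 fell as well, with 4.93% ± 0.773 in titled CT-26 and 6.72% ± 0.507 in titled control (log2 fold change -0.46 ± 0.14 SE, edgeR adjusted p = 0.0274).

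The other 3 called segments are those with most clonotypes, and their calls did not survive joining of near-identical sequences. TRBV19 rose to 16.8%, 19.9%, 16.7% and 17.2% in titled CT-26 libraries 1 to 4, against 11.4%, 10.8%, 14.6% and 10.6% in titled control libraries 1 to 4 (log2 fold change 0.57 ± 0.12 SE, edgeR adjusted p = 0.00821). TRBV13-1 fell to 10.4% ± 0.916, against 12.8% ± 0.261 in the titled control set (log2 fold change -0.30 ± 0.09 SE, edgeR adjusted p = 0.0274). TRBV13-2, which many invariant natural killer T cells use, fell to 16.1% ± 0.957, against 20.2% ± 2.67 in the titled control set, where titled control 3 lay at 16.3% and overlapped the titled CT-26 set (log2 fold change -0.33 ± 0.11 SE, edgeR adjusted p = 0.0496). With each sequence joined to a neighbour 1 base away and at least 5 times as deep, log2 fold changes were 0.17 for TRBV19, 0.06 for TRBV13-1 and -0.02 for TRBV13-2 (edgeR adjusted p = 0.218, 0.682 and 0.899). TRBV31 and TRBV5 kept 0.55 and -0.73 under the same joining, both with an edgeR adjusted p of 0.000787. By reads in place of clonotypes TRBV31 and TRBV5 had log2 fold changes of 0.92 and -1.16 (edgeR adjusted p = 4.08e-05 and 7.25e-05), and TRBV13-2 turned to 0.09 (edgeR adjusted p = 0.812). TRBV4, TRBV19 and TRBV13-1 lost their calls by reads, at -0.63, 0.41 and -0.25 (edgeR adjusted p = 0.143, 0.117 and 0.293). Under TMM scaling, which put the median log2 fold change over all V segments at 0.04 and not at 0.24, 1 segment was called higher and 5 lower, and TRBV31 had 0.34 (edgeR adjusted p = 0.138). DESeq2, at a median of 0.13, called 2 higher and 5 lower, TRBV31 among the higher ones. Leaving out titled control 1, titled control 2 or titled control 4 reduced the calls to 2, 1 and 1, and leaving out titled CT-26 1 reduced them to 3. Without both libraries of the sharing pair 9 segments were called, and these held all 6 named here.

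**Figure D4:**
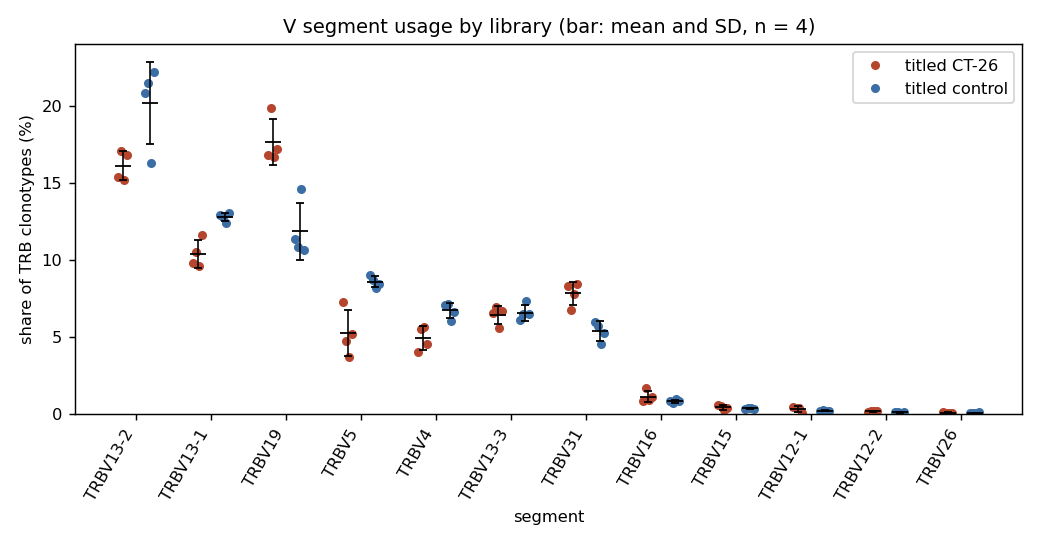
Share of TRB clonotypes (y axis, percent) that use each named V segment (x axis, ordered by the titled control mean), 1 point per library, with the mean and SD of each set of 4 in black. TRBV31 and TRBV19 lie higher and TRBV5 lower in all 4 titled CT-26 libraries than in any titled control library, and the superantigen list at the right lies below 2%.

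TRBV13-3, the other one of the 6 most used segments, did not pass the test (6.42% ± 0.590 in titled CT-26 and 6.57% ± 0.522 in titled control, log2 fold change -0.03 ± 0.13 SE, edgeR adjusted p = 0.866). Of V–J pairs, 3 of 165 tested (1.82%) were called, and 19 of 165 (11.5%) did not overlap between the sets. TRBV31 with TRBJ2-1 rose to 1.12%, 1.34%, 0.689% and 0.963% of clonotypes in titled CT-26 libraries 1 to 4, against 0.547%, 0.636%, 0.507% and 0.528% in titled control libraries 1 to 4 (log2 fold change 0.90 ± 0.23 SE, edgeR adjusted p = 0.0440). TRBV13-2 with TRBJ1-6 fell to 0.392%, 0.418%, 0.251% and 0.385% in titled CT-26 libraries 1 to 4, against 0.816%, 0.916%, 0.567% and 0.834% in titled control libraries 1 to 4 (log2 fold change -1.09 ± 0.27 SE, edgeR adjusted p = 0.0440). The third call, TRBV19 with TRBJ1-3, named after its values were seen, overlapped between the sets (log2 fold change 0.92 ± 0.23 SE, edgeR adjusted p = 0.0440). The number of calls depended on single libraries. Without titled control 1, 2 or 4 edgeR called 0 pairs, without titled control 3 it called 1, and without titled CT-26 1, 2, 3 or 4 it called 14, 14, 6 and 5. Across all pairs 46 had an unadjusted p under 0.05, and DESeq2 called 20, of which 15 were higher and 5 lower.

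V segments of the superantigen list were rare in both sets, and in both they were scarcer still among clonotypes of 10 or more reads. The list holds TRBV26, TRBV12-1, TRBV12-2, TRBV16 and TRBV15, the segments that I-E-bound mammary tumour virus superantigens are known to delete in BALB/c mice. Together they made up 2.09%, 2.66%, 1.75% and 1.69% of clonotypes in titled CT-26 libraries 1 to 4, against 1.44%, 1.47%, 1.60% and 1.48% in titled control libraries 1 to 4. The difference of 0.548 points exceeded the spread (exact permutation adjusted p = 0.0413), and it was 0.701 points without both libraries of the sharing pair. Weighted by the chance of being seen at equal reads it was 0.987 points (exact permutation adjusted p = 0.0464). In clonotypes of 2 or more reads it was 0.755 points and the sets overlapped, as titled CT-26 4 stood at 1.34% (exact permutation adjusted p = 0.111). No segment of the list passed the test alone. TRBV16 had 1.12% ± 0.367 in titled CT-26 and 0.811% ± 0.107 in titled control (edgeR adjusted p = 0.131), TRBV15 0.421% ± 0.148 in titled CT-26 and 0.346% ± 0.0375 in titled control (edgeR adjusted p = 0.241), TRBV12-1 0.301% ± 0.170 in titled CT-26 and 0.187% ± 0.0241 in titled control (edgeR adjusted p = 0.139), TRBV12-2 0.159% ± 0.0247 in titled CT-26 and 0.0959% ± 0.0333 in titled control (edgeR adjusted p = 0.176), and TRBV26 0.0509% ± 0.0295 in titled CT-26 and 0.0593% ± 0.0167 in titled control (edgeR adjusted p = 0.911).

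By clone size at each library's own depth, the list took 2.004% ± 0.429 of single-read clonotypes in the titled CT-26 set and 1.60% ± 0.166 in the titled control set. In clonotypes of 2 to 9 reads it took 4.45%, 4.75%, 4.87% and 2% in titled CT-26 libraries 1 to 4, against 1.87%, 1.87%, 1.57% and 1.49% in titled control libraries 1 to 4. In clonotypes of 10 or more reads it was found in 1 of 2428 over the titled CT-26 set and 11 of 11765 over the titled control set, whose libraries were 3 or more times as deep. That count was 0 of 953, 0 of 455 and 0 of 622 in titled CT-26 1, 2 and 3, which allows shares of up to 0.315%, 0.659% and 0.482%, and 1 of 398 in titled CT-26 4. Of the 11 in the titled control set, 9 used TRBV16, 1 used TRBV12-1 and 1 used TRBV15. Titled CT-26 4 lay nearest to the titled control libraries in the class of 2 to 9 reads.

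**Figure D5:**
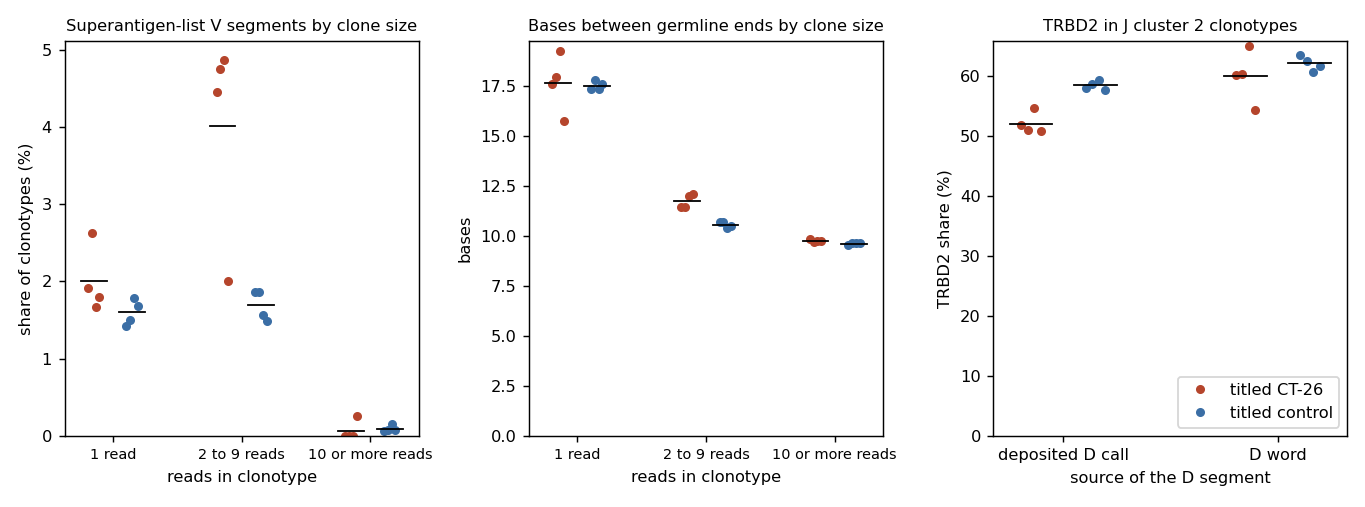
Left, share of clonotypes (percent) that use a V segment of the superantigen list, by reads in the clonotype at each library's own depth. Middle, mean number of bases between germline ends. Right, share of TRBD2 (percent) in cluster 2 clonotypes by deposited call and by word search. Points are libraries, titled CT-26 left of titled control, and lines are means. The list falls to 0.251% or less at 10 or more reads in every library, the joint shortens with clone size in both sets, and the sets separate by D call but not by D word.

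Different nucleotide sequences can encode the same CDR3, and such convergent versions were counted for each CDR3 with its V and J segment. At 3193 clonotypes per library, there were 1.0289, 1.0464, 1.0686 and 1.0303 versions per CDR3 in titled CT-26 libraries 1 to 4, against 1.0071, 1.0085, 1.0050 and 1.0071 in titled control libraries 1 to 4 (difference 0.0366, exact permutation adjusted p = 0.0413). The draw was made from 3193 to 6891 clonotypes in titled CT-26 and from 28155 to 48878 in titled control libraries. Versions of 1 CDR3 were therefore less likely to be drawn together from a titled control library, and the difference depends on library size. With 1-base neighbours joined, the difference was 0.00569, with the sets still not overlapping. Most further versions were 1 base away from the largest version of their CDR3, namely 89.7% to 92.2% of them in titled CT-26 and 84.6% to 89.0% in titled control libraries. Those that were 1 base away and at least 5 times shallower were 70.8% to 79.5% in titled CT-26 and 48.8% to 55.8% in titled control libraries. At each library's own depth the order of the sets was the opposite one, and they did not overlap. Before joining, 3.35% to 5.76% of CDR3 sequences in titled CT-26 and 6.23% to 6.39% in titled control libraries had 2 or more versions. After joining, 0.969% to 1.34% in titled CT-26 and 3.36% to 3.74% in titled control libraries did. The titled control libraries hold more clonotypes, so these shares depend on library size too. The part of sequencing or amplification errors in the versions was not tested.

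Few clonotypes recurred across libraries. Of 155818 distinct nucleotide clonotypes, 4660 (2.99%) were in 2 or more libraries, and of 142122 distinct CDR3 sequences with V and J, 7062 (4.97%) were. Of the 4660, 1669 were in titled CT-26 4 and titled control 3 alone. Without both of these libraries, 1563 of 106554 nucleotide clonotypes (1.47%) and 2879 of 97930 CDR3 sequences (2.94%) were in 2 or more of the other 6. Per 1000000 pairs of clonotypes, 2 titled CT-26 libraries shared 0.409 to 1.31 (median 0.836), a titled CT-26 and a titled control library shared 0.222 to 9.18 (median 0.372), and 2 titled control libraries shared 0.487 to 0.574 (median 0.521). These rates rest on only 8 to 27 shared clonotypes per pair within titled CT-26, against 509 to 811 within titled control, and were not tested. The 9.18 belongs to titled CT-26 4 and titled control 3. After joining 1-base neighbours, CDR3 sequences found in 1 library had 15.1 bases between germline ends and 1.03 versions on average, those in 2 libraries 9.31 bases and 1.51 versions, and those in 3 libraries 8.67 bases and 2.07 versions. Versions were pooled over libraries here, so a CDR3 in more libraries has more chances to show a second one. Without titled CT-26 4 and titled control 3, the same averages were 14.9 bases and 1.03 versions in 1 library, 8.93 bases and 1.67 versions in 2, and 8.55 bases and 1.997 versions in 3. Of the CDR3 sequences in 2 libraries, 61.8% had a nucleotide version that was present in both, and 49.1% did so without those libraries.

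Only 1 CDR3 was in all 8 libraries, a TRBV20–TRBJ2-3 loop of 12 amino acids with 10 nucleotide versions, or 5 after joining 1-base neighbours. Its main versions are shown because they spell the same loop through different bases, with capitals for positions at which the 8 deepest versions differ. Each version not printed had 1 read, so the last of these 8 were picked among ties. Some capitals mark positions that vary only in versions not printed.
Version 1: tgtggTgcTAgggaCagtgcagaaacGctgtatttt
Version 2: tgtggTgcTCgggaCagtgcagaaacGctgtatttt
Version 3: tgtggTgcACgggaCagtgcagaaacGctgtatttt
Version 4: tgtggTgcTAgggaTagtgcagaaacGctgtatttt
Version 5: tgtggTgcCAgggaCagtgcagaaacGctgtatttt
The loop had 44, 9, 15 and 1 reads in titled CT-26 libraries 1 to 4, against 5, 13, 10 and 12 in titled control libraries 1 to 4. Version 1, with 1 base between the germline ends, accounted for 34, 1, 13 and 1 of these reads in the titled CT-26 libraries, and for 0, 13, 4 and 10 in the titled control libraries. Version 4 also has 1 such base and was the main version of titled control 1. Version 2, with 9 reads, was in titled CT-26 1 alone, version 3, with 8 reads, in titled CT-26 2 alone, and version 5, with 5 reads, in titled control 3 alone.

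No nucleotide clonotype was in all 8 libraries, and 3 were in 7. They were picked after this was seen, and version 1 above is one of them. The others are printed with the bases between germline ends in capitals.
TRBV13-3 with TRBJ1-3: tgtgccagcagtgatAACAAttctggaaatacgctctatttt
TRBV13-3 with TRBJ2-4: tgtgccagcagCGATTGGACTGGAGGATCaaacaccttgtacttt
The TRBV13-3–TRBJ1-3 clonotype, which is the largest of titled control 4, had 3, 2, 0 and 2 reads in titled CT-26 libraries 1 to 4, against 46, 91, 72 and 71 in titled control libraries 1 to 4. The TRBV13-3–TRBJ2-4 clonotype had 1, 1, 0 and 1 reads in titled CT-26 libraries 1 to 4, against 1, 23, 34 and 26 in titled control libraries 1 to 4. Its count of 18 bases between the germline ends is above the mean of 9.31 in CDR3 sequences found in 2 libraries. The first of these bases mismatches the V end, and those right after it match that end again. The 18 bases therefore include bases that match the V segment. Reads on both were few in the titled CT-26 set, which was also sequenced less deeply, and how a sequence came to recur was not tested.

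The RNA sequencing libraries of the same titles, 4 in each set, give the beta chain's transcript background. Of 6408 genes tested with edgeR, 2740 (42.8%) were called, 1359 higher (21.2%) and 1381 lower (21.6%) in the titled CT-26 set. All 10 tested genes of the receptor, CD3 and coreceptor list were lower, with a median log2 fold change of -2.11 beside -0.02 over all genes tested. Trbc1, the constant gene behind the first J cluster, had 34.5, 16.2, 19.7 and 10.2 counts per 1000000 after TMM scaling (CPM) in titled CT-26 libraries 1 to 4, against 131, 136, 124 and 99.8 CPM in titled control libraries 1 to 4 (log2 fold change -2.58 ± 0.27 SE, edgeR adjusted p = 1.24e-08). Trbc2, behind the second, had 349, 154, 178 and 129 CPM in titled CT-26 libraries 1 to 4, against 1390, 1131.5, 854 and 707 CPM in titled control libraries 1 to 4 (log2 fold change -2.33 ± 0.29 SE, edgeR adjusted p = 5.03e-07). These near-identical genes can share reads, so their separate levels are uncertain. Of the counts on both, Trbc1 held 7.32% to 9.95% in the titled CT-26 set and 8.63% to 12.6% in the titled control set, and the sets overlapped. Trac, the alpha chain constant gene, had a log2 fold change of -1.58 ± 0.27 SE, and Cd3g, a CD3 signalling chain, one of -2.56 ± 0.30 SE (edgeR adjusted p = 2.58e-05 and 7.20e-08). Cd4 averaged 99.9 ± 37.0 CPM in titled CT-26 and 183 ± 3.03 CPM in titled control, and Cd8a 2.13 ± 1.31 CPM in titled CT-26 and 28.0 ± 6.87 CPM in titled control (edgeR adjusted p = 0.00309 and 1.30e-07). The Cd8a values rest on only 4, 4, 1 and 1 counts in titled CT-26 libraries 1 to 4, against 27, 26, 27 and 59 in titled control libraries 1 to 4. With library totals in place of TMM, the median over all genes was 0.35 with 1936 genes higher and 725 lower, and 8 of the 10 were still called lower, Cd3d and Cd4 being the exceptions (edgeR adjusted p = 0.0575 and 0.123). In whole spleen, fewer T cells and less receptor RNA per cell cannot be told apart.

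Among genes of V(D)J recombination, 5 of 15 passed the count filter, and 2 were higher and 2 lower. Hmgb1 and Hmgb2, chromatin proteins that assist RAG and also rise in dividing cells, rose by log2 1.25 ± 0.22 and 1.98 ± 0.22 SE (edgeR adjusted p = 2.95e-05 and 3.05e-08). Xrcc5, a Ku subunit of end joining, and Polm, a polymerase that fills joints, fell by 1.42 ± 0.42 and 1.41 ± 0.34 SE on the log2 scale (edgeR adjusted p = 0.00686 and 0.00127), though Xrcc5 lost its call with library totals (edgeR adjusted p = 0.0748). Xrcc5 had few counts, with 5, 5, 4 and 8 in titled CT-26 libraries 1 to 4, against 11, 20, 14 and 21 in titled control libraries 1 to 4. Rag1, Rag2 and the pre-T receptor gene Ptcra had 0 counts in all 8 RNA libraries, and Dntt, which adds bases at the joints, did not exceed 0.894 CPM. Of the class II genes that present superantigens, 3 of 4 tested were lower, among them the I-E beta gene H2-Eb1 with 399 ± 148 CPM in titled CT-26 and 885 ± 112 CPM in titled control (edgeR adjusted p = 0.000205). The B cell markers Ms4a1 and Cd79a and the red pulp macrophage gene Spic were present, and these 3 were called lower in that set too. Vcam1 did not pass the test (edgeR adjusted p = 0.129), but was called higher with library totals (log2 fold change 0.78, edgeR adjusted p = 0.0114). The epithelial genes Epcam, Krt8 and Krt18 did not exceed 2.65 CPM in any library. Counts on Trbv genes were 0 to 1 per titled CT-26 and 4 to 11 per titled control library, too few to compare V usage with the TCR libraries.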

How the data were processed

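The authors deposited 1 table per TCR library with a read count, a CDR3 sequence and V, D, J and C calls for each entry, per the file headers. No label or header names the program that made them. The labels' protocols name the SMARTer Mouse TCR a/b Profiling Kit. The RNA tables hold the deposited fragment counts per gene made with featureCounts 2.0.1 on GENCODE M29 without strand, per the file headers, and Trimmomatic 0.39 and STAR 2.7.10a stand in the submitters' processing notes.

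Alleles were dropped, and entries of equal V, J and CDR3 nucleotides were summed. Every TRB entry was in frame, so the planned share of out-of-frame reads was 0 in each library and had no test, and entries with stops or unread codons were left out. Expected values at 14939 reads and 3193 clonotypes are hypergeometric. A V or J germline end was read from the libraries by extension inward from the outer base of the CDR3. Extension went on while at least 50% of the clonotypes that had matched so far held the commonest next base. Ends from GENCODE M21 transcripts of C57BL/6 were used for clone size classes, sharing and printed sequences. Of the single values 13 could be tested, each by an exact two-sided permutation of library means over 70 assignments, with Benjamini-Hochberg adjustment. Segment usage was tested with edgeR 4.0.16 (quasi-likelihood, library size the total of TRB clonotypes, mean of at least 10), CDR3 length per V with limma 3.58.1, and RNA with edgeR (filterByExpr, TMM). DESeq2 1.42.0 (R 4.3.3), joining of 1-base neighbours, clonotypes of 2 or more reads, other weights and leaving out libraries were alternatives, and the fits were tested on simulated data. All differences are titled CT-26 minus titled control.

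Named were all J segments, the V segments of the superantigen list, the 6 most used, and up to 4 called per direction, V–J pairs called without overlap, up to 3 V segments per direction for length with the most used, and the largest, most convergent and most shared clonotypes. Members and lists were chosen with earlier results of these data known. Title numbers did not enter as pairs in any main test, and a block is among the alternatives. H2-Ea had no row under that symbol and is not analysed here. RNA lists were the receptor and CD3 genes, V(D)J recombination, class II presentation and spleen and epithelial markers.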

Additional observations from a re-analysis of the deposited data

Results flagged for a closer look

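Of 92 sets of 4 libraries examined for a value far from the other 3 by Dixon's ratio, 5 had one, and chance alone gives about 1 in 20. The inverse Simpson index of titled CT-26 1 was 1703, above 778 to 794 in the rest of its set. TRBV19 took 19.9% of clonotypes in titled CT-26 2, against 16.7% to 17.2% in the rest of its set. TRBV12-1 took 0.0482% of clonotypes in titled CT-26 4, with the rest of its set between 0.359% and 0.421%. The value of titled CT-26 4 rests on only 2 clonotypes, each with a single read. The mean CDR3 length of TRBV16 clonotypes was 14.2 amino acids in titled CT-26 4, and 13.655 to 13.714 in the rest of its set. TRBJ2-3 took 9.95% of clonotypes in titled control 1, against 9.24% to 9.32% in the rest of its set. For TRBV12-1 and TRBV16 length, titled CT-26 4 lay apart from the other titled CT-26 libraries, and it is also the library that shares 44.8% of its clonotypes with titled control 3. The part of that sharing in these values was not tested.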

How the results depend on the processing

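Of the 13 single values tested by exact permutation, none changed sign when 1 library was left out. The differences of titled CT-26 minus titled control ranged, without 1 library or without the sharing pair, over -6883 to -6221 for clonotypes at equal reads, 56.9 to 66.7 points for reads in clonotypes of 10 or more, -15121 to -11579 for the inverse Simpson index, -5.48 to -1.53 points for the J cluster 2 share of clonotypes and -4.96 to -1.73 points by reads. They ranged over -7.30 to -5.70 points for TRBD2 calls, 1.23 to 2.46 points for no D call, -0.101 to -0.0670 and -0.0960 to -0.0820 amino acids for CDR3 length by clonotype and by read, 0.667 to 1.30 bases between germline ends, 0.0283 to 0.0415 versions per CDR3, and 0.344 to 0.701 points for the superantigen list. The 9 values past the threshold missed it without any one titled control library (exact permutation adjusted p 0.0531 to 0.111), and the share without a D call also without titled CT-26 3 (exact permutation adjusted p = 0.0825). The adjusted p also depends on how many of the 13 values reach the smallest p. Without titled control 1, clonotypes at equal reads differed by -6650. The exact permutation p before adjustment was 0.0286, the smallest that 35 assignments allow. Calls ranged over 1 to 9 for V segments, 0 to 1 for J segments, 0 to 14 for V–J pairs, 0 to 2 for CDR3 length by V, and 2517 to 2948 for RNA genes.

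With clonotypes of at least 2 reads, the single-read share at equal reads differed by -55.0 points, which follows from removing single reads, no D call by -0.957 points, bases between germline ends by 0.473 (now past the threshold) and the superantigen list by 0.755 points, and 10 V–J pairs were called. Weighting by the chance of being seen gave 1.58 points for no D call, -0.0259 amino acids for CDR3 length, 3.14 bases (now past the threshold) and 0.987 points for the superantigen list. This weight counts few-read clonotypes less, most so in the deeper titled control libraries. By reads, 3 V segments and 1 J segment (TRBJ2-7, log2 fold change -0.21) were called, and TRBV13-2 had a log2 fold change of 0.0915. With 1-base neighbours joined, 3 V segments and 6 V–J pairs were called, and TRBV13-1 had a log2 fold change of 0.0556. DESeq2 called 20 V–J pairs and the fit without a filter 15. CDR3 length weighted by reads called 1 V segment, TRBV16. The cause of these changes was not tested. Same-numbered libraries did not deviate together (correlations of deviations -0.255, 0.0275, -0.182 and -0.186). With the replicate block, the calls were 6 V segments, 0 J segments, 8 V–J pairs, 1 V segment for CDR3 length and 2668 RNA genes. Precision of the titled CT-26 values is limited by their 3193 to 6891 clonotypes.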
